A study of Mus musculus with 12 samples.

Results

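Chemokines are small secreted proteins that steer leukocytes and other cells through receptors on the cell surface. The 10 chemokine genes described here, out of 22180 genes measured, are Cxcl1, Cxcl2, Cxcl5, Cxcl10, Cxcl12, Cxcl16, Ccl2, Ccl5, Ccl7 and Ccl20. They were taken by name, with earlier results of these data known, and each was read from its brightest probe set carrying a single gene symbol. All 10 had exactly 1 such probe set on the array.

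Expression was read from 12 Affymetrix arrays, with 3 arrays for each of 4 groups of mouse pancreatic cells. The first group was low-passage pancreatic tumor cells grown in standard medium. The second was acinar-to-ductal metaplasia (ADM) culture, made by embedding acinar cells in collagen for 7 days and adding Tgf-alpha at 50 ng/ml to stimulate the EGF receptor. The remaining groups were embryonic and adult acinar cells, which make the digestive enzymes, taken for RNA straight after digestion of the tissue. C57Bl6/J wildtype is given as the strain of every sample, tumor cells included, and no tumor driver allele, embryonic day or adult age is named. All 3 tumor samples carry the same stem, 921, in their descriptions, and the labels do not say whether they are 1 cell line. They do not say from which age the cultured acinar cells came, nor whether replicates were separate animals or cultures. The p-values therefore measure the spread between arrays, which may be technical.

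Chemokine ligands are grouped by the spacing of their first cysteines into CXC and CC families. Cxcl1, Cxcl2 and Cxcl5 act on Cxcr2 and draw neutrophils, Ccl2 and Ccl7 act on Ccr2 and draw monocytes, and Ccl20 acts on Ccr6. Cxcl12 acts on Cxcr4 and is bound by the scavenging receptor Ackr3, Cxcl16 acts on Cxcr6, Cxcl10 draws T cells through Cxcr3, and Ccl5 is also known to draw T cells. In the pancreas, inflamed acinar cells, stromal cells and carcinoma cells are all known sources of such ligands, and many of the inducible ones are targets of the transcription factor NF-kappaB.

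The RefSeq promoter table of mouse build GRCm38.p6 held 5 of the 10 genes, and the 250 bases before each start are shown because members with and without an NF-kappaB motif can be set beside their levels. Capitals mark matches to the kappaB consensus, searched on both strands.
Cxcl1, chr5:90890995-90891244, plus strand: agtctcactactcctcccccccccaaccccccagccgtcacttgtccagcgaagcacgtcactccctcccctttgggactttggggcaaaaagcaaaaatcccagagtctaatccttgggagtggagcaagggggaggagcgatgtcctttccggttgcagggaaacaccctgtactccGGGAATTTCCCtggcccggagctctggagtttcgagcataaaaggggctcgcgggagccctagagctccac
Cxcl2, chr5:90903649-90903898, plus strand: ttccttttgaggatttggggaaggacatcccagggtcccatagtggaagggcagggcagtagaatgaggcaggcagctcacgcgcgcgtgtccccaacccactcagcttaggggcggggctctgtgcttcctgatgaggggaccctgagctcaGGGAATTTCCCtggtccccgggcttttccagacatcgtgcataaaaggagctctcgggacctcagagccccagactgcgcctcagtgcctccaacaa
Ccl20, chr1:83116516-83116765, plus strand: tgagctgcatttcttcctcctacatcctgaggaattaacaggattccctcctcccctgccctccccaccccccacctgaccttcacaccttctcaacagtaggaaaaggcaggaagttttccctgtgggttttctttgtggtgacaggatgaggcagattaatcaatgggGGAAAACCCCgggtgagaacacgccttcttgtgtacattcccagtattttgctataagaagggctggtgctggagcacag
Cxcl10, chr5:92348890-92349139, minus strand: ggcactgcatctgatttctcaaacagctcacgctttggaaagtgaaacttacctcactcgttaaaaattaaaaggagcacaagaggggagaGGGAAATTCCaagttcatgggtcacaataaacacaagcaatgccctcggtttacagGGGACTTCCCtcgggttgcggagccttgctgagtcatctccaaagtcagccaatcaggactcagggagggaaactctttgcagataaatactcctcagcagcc
Cxcl12, chr6:117168285-117168534, plus strand: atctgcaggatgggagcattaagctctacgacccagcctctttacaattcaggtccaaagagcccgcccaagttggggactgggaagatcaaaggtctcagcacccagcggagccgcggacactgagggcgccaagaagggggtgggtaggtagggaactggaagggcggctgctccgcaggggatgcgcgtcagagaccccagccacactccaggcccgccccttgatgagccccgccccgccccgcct
A kappaB match stood in 4 of these 5 windows, while 3.90% of the 32851 promoters in the table held one in a window of the same length. Counted back from the start, it ended at base -61 in Cxcl1, -87 in Cxcl2 and -71 in Ccl20. In Cxcl1 and Cxcl2 the motif was read on both strands at overlapping bases. Cxcl10 had 2 matches, ending at -150 and -94, together with 2 GAAA boxes spaced by 2 bases, as in interferon response elements (2.98% of promoters) and the AP-1 motif TGANTCA (6.75%). Cxcl12 had no kappaB match in this window and 5 matches to the GC box GGGCGG, which 32.7% of promoters held. A match describes the letters only, and binding was not measured on these arrays.

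Signals are on the authors' processed log2 scale, read as log2 from their range of 1.56 to 13.67. A level of 3.62 served as background, since 95% of the group means of 1390 odorant and vomeronasal receptor genes lay under it. Array medians were 3.66 to 3.72 in adult acinar cells and 3.48 to 3.57 elsewhere, and correlations across genes were 0.967 to 0.991 within groups and 0.817 to 0.938 between them. Differences were tested with limma over all genes, and a gene was called at a Benjamini-Hochberg adjusted p under 0.05 with a log2 difference of at least 1. Centring arrays on 10 housekeeping genes moved the all-gene median against adult cells from -0.09 to -0.69 in tumor cells, from -0.11 to -0.58 in ADM culture and from -0.09 to -0.18 in embryonic cells. It turned no called chemokine difference round. The digestive enzyme gene Cpa1 averaged 12.41 in ADM culture, 12.89 in embryonic and 13.13 in adult acinar cells, against 3.96 in tumor cells. Cela1, another enzyme gene, averaged 8.44 in ADM culture, 12.64 in embryonic, 13.23 in adult and 4.69 in tumor cells. Of 7 measured acinar markers, 7 were called lower than adult in tumor cells, 5 in ADM culture and 2 in embryonic cells, and 0 higher. The shares of all genes called lower were 5.96%, 4.22% and 2.61%. The duct keratin gene Krt19 averaged 10.37 in tumor cells, 10.12 in ADM culture, 7.82 in embryonic and 6.92 in adult acinar cells. It is 1 of 6 measured ductal markers. Against adult cells, 2 of these were called higher and 3 lower in tumor cells. In ADM culture 4 were higher and 0 lower, and in embryonic cells 2 and 0. Epcam, an adhesion gene of epithelia also on that list, averaged 3.82 in tumor cells, close to background. Arrays of mixed isolates cannot tell fewer cells of a type from less RNA per cell.

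Against adult acinar cells, tumor cells and ADM culture each had more members called higher than lower, but not the same ones. In tumor cells 6 members were called, 5 higher and 1 lower, where 20.0% of all genes were called, 14.0% higher and 5.96% lower. All 7 members called in ADM culture were higher, where 16.7% of all genes were called, 12.5% higher and 4.22% lower. In embryonic cells 2 were called and both were higher, where 12.6% of all genes were called and 2.61% were lower. No member was lower in ADM culture or in embryonic cells than in adult cells even at an unadjusted limma p under 0.05. The median member difference was 0.87 in tumor cells, 1.67 in ADM culture and 0.23 in embryonic cells, against medians over all genes of -0.09, -0.11 and -0.09. The 3 comparisons share the adult arrays, so they are not independent of each other.

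**Figure D1:**
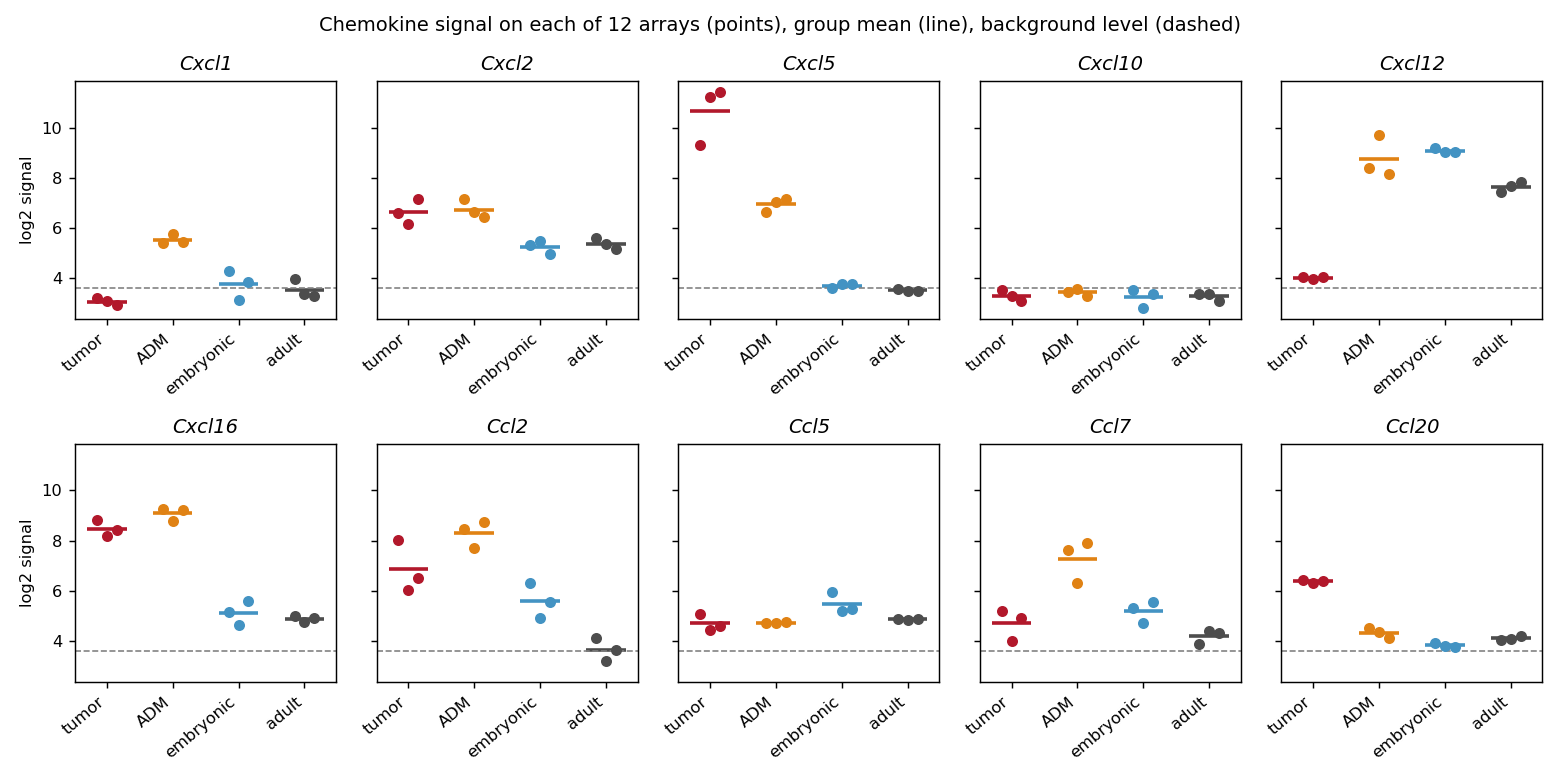
Log2 signal of the 10 chemokine genes on each array (points), with the group mean (line) and the background level of 3.62 (dashed). Panels share one vertical axis, but signals of different probe sets are not comparable in height. Cxcl5 stands highest in tumor cells, Cxcl12 lowest there, and Cxcl10 lies under background in all 4 groups.

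Among the Cxcr2 ligands, Cxcl5 separated the groups most widely. Its signal was 9.31, 11.20 and 11.42 in tumor cells, against 6.65, 7.04 and 7.14 in ADM culture. Embryonic acinar cells gave 3.61, 3.76 and 3.77, against 3.58, 3.49 and 3.49 in adult acinar cells. All tumor arrays lay above all ADM arrays, and both groups lay above every acinar array without overlap. Embryonic and adult arrays also did not overlap, but at background their difference of 0.19 ± 0.40 (SE, n = 3 per group) was not called. Cxcl5 was at least 129.8-fold higher in tumor than in adult cells (limma adjusted p = 1.54e-08), and at least 9.99-fold higher in ADM culture than in adult cells (adjusted p = 2e-05). The tumor level exceeded the ADM level 13.0-fold, a log2 difference of 3.70 ± 0.40 (adjusted p = 2.52e-05). Tumor replicate 1 read about 2 units under the other tumor arrays, and it was still above every ADM array. Without it the folds were at least 206.0 over adult cells and 20.6 over ADM culture.

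Cxcl1 was above background on all 3 arrays in ADM culture alone. It gave 5.41, 5.76 and 5.44 in ADM culture, against 4.29, 3.13 and 3.85 in embryonic and 3.97, 3.36 and 3.30 in adult acinar cells. Tumor cells gave 3.20, 3.09 and 2.93, every array under background. The ADM arrays lay above all 9 others, and tumor cells did not overlap with ADM culture or adult cells. Cxcl1 was at least 3.77-fold higher in ADM culture than in adult cells (limma adjusted p = 5.59e-05) and 3.43-fold higher than in embryonic cells (adjusted p = 0.000295). It was at least 3.77-fold lower in tumor cells than in ADM culture (adjusted p = 2.21e-05). Tumor and adult cells differed by -0.47 ± 0.26, which was not called.

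Cxcl2 moved less and in both cultured groups. Tumor cells gave 6.58, 6.15 and 7.16 and ADM culture 7.14, 6.62 and 6.44, against 5.34, 5.50 and 4.95 in embryonic and 5.59, 5.38 and 5.18 in adult acinar cells. Every cultured array lay above every freshly isolated one, while tumor cells and ADM culture overlapped, as did embryonic and adult cells. The log2 difference from adult cells was 1.25 ± 0.26 in tumor cells (limma adjusted p = 0.00164) and 1.35 ± 0.26 in ADM culture (adjusted p = 0.00111). Both calls were lost under each of the 3 other scalings of the arrays. The 2 values then lay at 0.65 to 0.73 for tumor cells and 0.87 to 0.92 for ADM culture, under the minimum difference of 1. Without tumor replicate 3 the tumor value was 0.98, also under that minimum. Tumor cells and ADM culture differed by -0.10 ± 0.26 (adjusted p = 0.884).

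Taking the class as a whole, tumor cells had high Cxcl5 with Cxcl1 at background, and ADM culture had all 3 ligands above adult cells. The kappaB motif shown in capitals for Cxcl1 and Cxcl2 has the same letters in both promoters. In tumor cells against adult cells, Cxcl2 was called higher, though not under the 3 other scalings, and Cxcl1 was not called. The part of the motif in these levels was not tested. Cxcr2, their receptor, stayed within 3.30 and 4.48 in group means and was not called against adult cells in any group. It was under background in tumor cells and ADM culture, and was at least 1.82-fold lower in ADM culture than in embryonic cells (limma adjusted p = 0.000157). The neutrophil gene S100a8 averaged 3.18 in tumor cells and 3.40 in ADM culture, both under background, against 9.99 in embryonic and 2.95 in adult cells. Of 8 neutrophil markers, 2 were above background in tumor cells, 0 in ADM culture, 5 in embryonic and 1 in adult cells.

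Cxcl16 is made as a membrane-bound protein that the proteases Adam10 and Adam17 can release. Its signal was 8.83, 8.16 and 8.41 in tumor cells and 9.26, 8.77 and 9.20 in ADM culture. Embryonic acinar cells gave 5.17, 4.62 and 5.60, against 5.01, 4.76 and 4.91 in adult acinar cells. Both cultured groups lay more than 2 units above every freshly isolated array, and neither pair within the cultured or the isolated kind was separated. The gene was 11.9-fold higher in tumor cells (limma adjusted p = 9.32e-08) and 18.2-fold higher in ADM culture (adjusted p = 4.88e-08) than in adult cells. Tumor cells and ADM culture differed by -0.61 ± 0.24 (adjusted p = 0.124), and embryonic and adult cells by 0.24 ± 0.24 (adjusted p = 0.482). Adam10 and Adam17 were called higher in ADM culture than in adult cells, by 1.05 ± 0.20 and 1.20 ± 0.16. Both calls fell under the minimum difference under all 3 other scalings, at 0.57 to 0.91 for Adam10 and 0.73 to 0.83 for Adam17, and Adam10 also without ADM replicate 2, at 0.98. In tumor cells they differed from adult cells by 0.14 ± 0.20 and 0.80 ± 0.16, and neither was called. The receptor Cxcr6 had group means at or under background except 3.64 in embryonic cells.

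The monocyte ligand Ccl2 was called higher than adult cells in all 3 other groups. Its signal was 8.01, 6.04 and 6.49 in tumor cells and 8.46, 7.69 and 8.74 in ADM culture. Embryonic cells gave 6.29, 4.91 and 5.55, against 4.12, 3.20 and 3.63 in adult cells. Adult arrays lay below all 9 others, tumor replicate 1 reached into the range of ADM culture, and tumor and embryonic arrays overlapped. Ccl2 was 9.17-fold higher in tumor cells (limma adjusted p = 0.00011), 25.0-fold higher in ADM culture (adjusted p = 5.9e-06) and 3.82-fold higher in embryonic cells (adjusted p = 0.0082) than in adult cells. ADM culture exceeded embryonic cells 6.56-fold (adjusted p = 0.00111). The order of means was ADM culture, tumor, embryonic and adult cells, and the neighbouring differences between ADM and tumor and between tumor and embryonic cells were not called. With the replicate number added to the fit as a block, both were called (limma adjusted p = 0.00375 and 0.00485). Replicate 2 had the lowest Ccl2 signal in every group, but the labels do not say whether replicate numbers pair the arrays. Tumor cells against ADM culture gave -1.45 ± 0.47 (adjusted p = 0.0567), which became -2.03 with adjusted p = 0.00276 without tumor replicate 1 and -1.75 with adjusted p = 0.0467 without ADM replicate 2. Without tumor replicate 2 the difference was -1.05 (limma adjusted p = 0.24). Tumor against embryonic cells gave 1.26 ± 0.47 (adjusted p = 0.0676). That value was called at 1.67 without tumor replicate 2 and at 1.62 without embryonic replicate 1, and fell to 0.68 without tumor replicate 1.

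Ccl7, the neighbour of Ccl2 on chromosome 11 and a ligand of the same receptor, was higher in ADM culture than in every other group. ADM culture gave 7.62, 6.29 and 7.92, against 5.31, 4.73 and 5.57 in embryonic and 3.90, 4.41 and 4.31 in adult cells. Tumor cells gave 5.18, 4.02 and 4.90. The ADM arrays lay above all 9 others, whereas tumor arrays overlapped with both acinar groups. The fold was 8.40 over adult cells (limma adjusted p = 4.47e-05) and 4.21 over embryonic cells (adjusted p = 0.00205), and tumor cells were 5.97-fold lower than ADM culture (adjusted p = 0.000518). Tumor against adult cells gave 0.49 ± 0.39, not called. Embryonic against adult cells gave 1.00 ± 0.39 (adjusted p = 0.0738), not called although all embryonic arrays lay above all adult ones. ADM replicate 2 had the lowest signal of its group for both Ccl2 and Ccl7.

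Their receptor Ccr2 was above background in embryonic cells alone, at a mean of 4.94, and was at least 2.49-fold higher there than in adult cells (limma adjusted p = 0.000113). Ptprc, the leukocyte antigen CD45, averaged 2.96 in tumor cells, 3.21 in ADM culture, 4.78 in embryonic and 3.69 in adult cells. Of 10 macrophage and myeloid markers, 3 were above background in tumor cells, 6 in ADM culture, 9 in embryonic and 7 in adult cells. Their summed linear signal was 879 to 1166 in tumor cells, 879 to 1411 in ADM culture, 1045 to 1532 in embryonic and 351 to 398 in adult cells. A single gene gave most of each sum, Cd14 with 75.3% to 83.6% of it in tumor cells and Lyz2 with 52.1% to 59.8% in ADM culture, 62.4% to 63.4% in embryonic and 60.8% to 63.4% in adult cells. The endotoxin co-receptor gene Cd14 averaged 9.61 in tumor cells, 8.11 in ADM culture, 4.48 in embryonic and 4.36 in adult cells. Lyz2, a lysozyme gene of myeloid cells, averaged 3.62 in tumor cells, 9.28 in ADM culture, 9.66 in embryonic and 7.88 in adult cells. The mannose receptor gene Mrc1 averaged 6.42 in tumor cells, 3.93 in ADM culture, 6.95 in embryonic and 3.39 in adult cells. Markers of this list thus differed in which cultured group held their higher level, and the part of these cells in the Ccl2 and Ccl7 signals was not tested.

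Ccl20 was the member raised in tumor cells alone, with little spread. It gave 6.44, 6.30 and 6.38 in tumor cells and 4.51, 4.35 and 4.12 in ADM culture. Embryonic cells gave 3.93, 3.81 and 3.78, against 4.03, 4.07 and 4.22 in adult cells. Tumor arrays stood apart from the 9 others by nearly 2 units, and ADM culture overlapped with adult cells. Embryonic arrays lay just below adult arrays, by a difference of -0.27 ± 0.14 that was not called. Ccl20 was 4.81-fold higher in tumor than in adult cells (limma adjusted p = 4.29e-08), 4.13-fold higher than in ADM culture (adjusted p = 3.73e-07) and 5.79-fold higher than in embryonic cells (adjusted p = 1.88e-08). ADM culture and adult cells differed by 0.22 ± 0.14 (adjusted p = 0.24). Its receptor Ccr6 had all 4 group means under background.

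**Figure D2:**
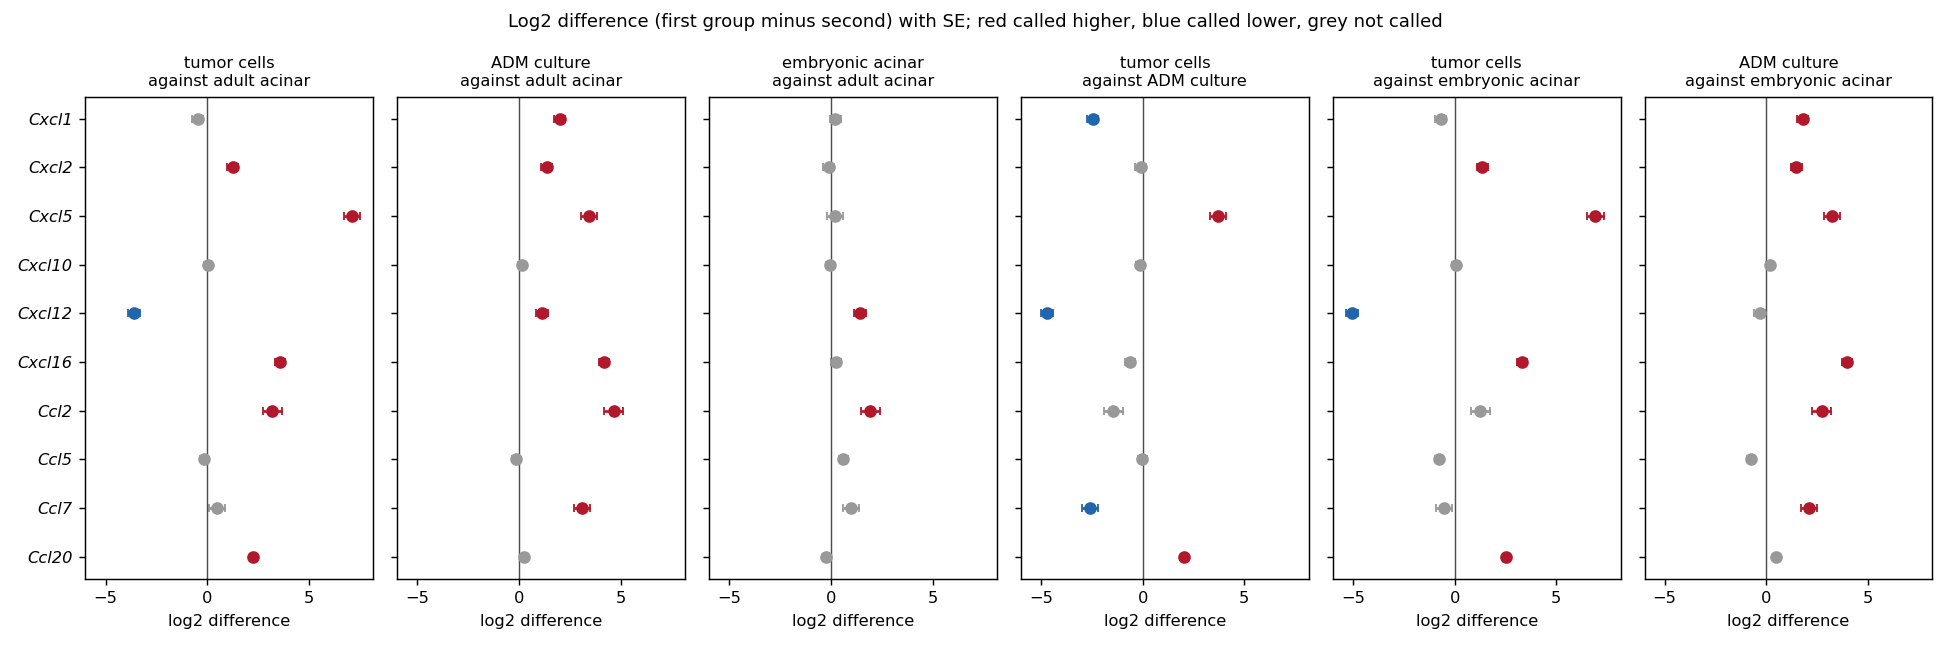
Log2 differences (first group minus second) of the 10 chemokine genes in all 6 comparisons, with standard errors from the fit over 12 arrays (n = 3 per group). Red points were called higher, blue points lower and grey points were not called. Cxcl5 lies farthest right in the tumor comparisons and Cxcl12 farthest left, and no member was called lower in ADM culture than in acinar cells.

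Cxcl12, which retains stem cells and leukocytes in tissue through Cxcr4, ran the other way in tumor cells. Its signal was 4.04, 3.99 and 4.05 in tumor cells and 8.40, 9.69 and 8.17 in ADM culture. Embryonic acinar cells gave 9.20, 9.01 and 9.03, against 7.43, 7.67 and 7.82 in adult acinar cells. Tumor arrays lay more than 3 units below all 9 others, and adult arrays lay below the ADM and embryonic arrays, which overlapped with each other. Cxcl12 was 12.2-fold lower in tumor than in adult cells (limma adjusted p = 5.25e-07), 26.5-fold lower than in ADM culture (adjusted p = 1.53e-07) and 33.2-fold lower than in embryonic cells (adjusted p = 2.95e-08). Embryonic cells exceeded adult cells by 1.44 ± 0.30 (adjusted p = 0.00273). ADM culture exceeded adult cells by 1.11 ± 0.30 (adjusted p = 0.0102). That call rested on 1 array and on the scaling, at 0.65 without ADM replicate 2 and at 0.64 to 0.85 under the 3 other scalings.

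The mean level of fibroblast markers had the same order of groups as Cxcl12, and that of endothelial markers placed ADM culture below adult cells. Of 11 fibroblast and stellate markers, 3 were above background in tumor cells and 11 in each of the other groups. Their summed linear signal was 127 to 135 in tumor cells, 2296 to 5530 in ADM culture, 6393 to 10191 in embryonic and 959 to 984 in adult cells. Of 8 endothelial markers, 3 were above background in tumor cells, 7 in ADM culture, 8 in embryonic and 8 in adult cells. Their summed signal was 91.3 to 97.2 in tumor cells, 396 to 523 in ADM culture, 2135 to 2253 in embryonic and 512 to 595 in adult cells. The collagen gene Col1a2 averaged 2.86 in tumor cells, 10.24 in ADM culture, 11.17 in embryonic and 6.36 in adult cells. Dcn, of the same list, averaged 3.17, 8.49, 10.84 and 9.36 in that order, so ADM culture lay below adult cells. Dcn alone gave 67.1% to 69.2% of the fibroblast sum in adult cells, which was 299 to 322 without it. Within ADM culture, replicate 2 had the highest Cxcl12 at 9.69 and the lowest mean of the fibroblast markers at 6.75, against 7.90 and 7.97 on the other ADM arrays. Whether stromal cells carried the Cxcl12 signal was not tested.

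**Figure D3:**
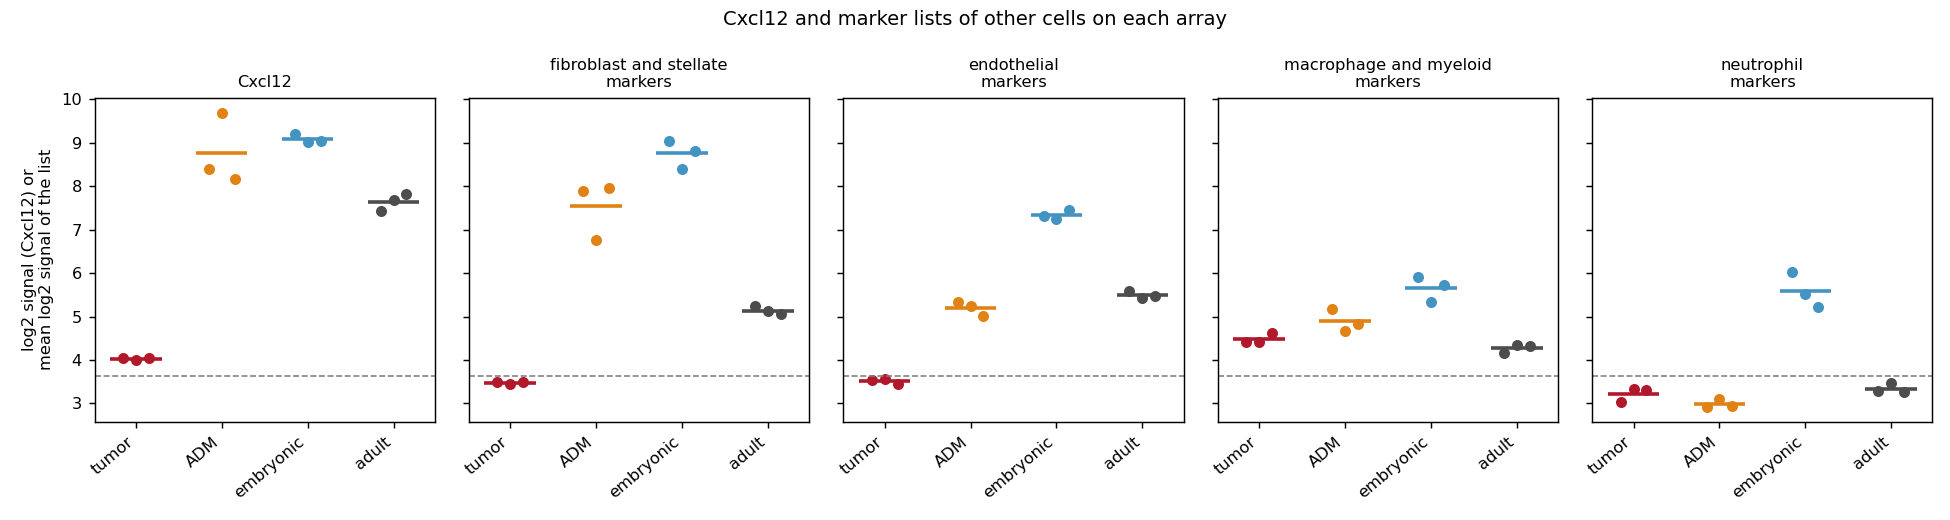
Log2 signal of Cxcl12 and mean log2 signal of 4 lists of markers of other cells on each array, with group means (lines) and the background level (dashed). Tumor arrays are lowest for Cxcl12 and for the fibroblast and endothelial lists. ADM replicate 2, the middle ADM point, is the highest ADM array for Cxcl12 and the lowest for the fibroblast list.

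Of the receptors of Cxcl12, Cxcr4 had group means of 4.27 in tumor cells, 5.39 in ADM culture, 6.51 in embryonic and 4.42 in adult cells. Embryonic cells exceeded adult cells by 2.09 ± 0.17 (limma adjusted p = 1.57e-06), and ADM culture exceeded adult cells by 0.97 ± 0.17, just under the minimum difference. Tumor and adult cells differed by -0.15 ± 0.17, not called. Ackr3 was higher in tumor cells than in ADM culture by 1.64 ± 0.30 (adjusted p = 0.00194). Of enzymes known to clip Cxcl12, 2 were lower in tumor cells than in embryonic cells, the peptidase Dpp4 by 3.72 ± 0.28 on the log2 scale and the matrix protease Mmp2 by 4.78 ± 0.30 on the same scale. Dpp4 averaged 3.63 in tumor cells, 4.17 in ADM culture, 7.35 in embryonic and 4.78 in adult cells. Its difference of tumor from adult cells was -1.16, a call lost without tumor replicate 2 (-0.87) and without adult replicate 1 (-0.98). Mmp2 was 8.77-fold higher in ADM culture than in adult cells (adjusted p = 3.74e-06).

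The T cell ligands Cxcl10 and Ccl5 were not called in any of the 6 comparisons. Cxcl10, an interferon target, gave 3.55, 3.29 and 3.10 in tumor cells, 3.46, 3.56 and 3.29 in ADM culture, 3.53, 2.82 and 3.39 in embryonic and 3.36, 3.38 and 3.11 in adult cells. All 12 values were under background, so no fold is given. Its 2 kappaB matches and the pair of GAAA boxes in the sequence above thus stand beside a signal not distinguishable from background. Cxcl9 and Cxcl11, which share its receptor Cxcr3, also had group means under background in all 4 groups.

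Ccl5 gave 5.07, 4.44 and 4.60 in tumor cells, 4.72, 4.70 and 4.75 in ADM culture, 5.95, 5.19 and 5.28 in embryonic and 4.88, 4.82 and 4.89 in adult cells. The embryonic arrays were the 3 highest of the 12, and the other groups were close together. Embryonic cells exceeded adult cells by 0.61 ± 0.21 (limma adjusted p = 0.0412). Tumor cells differed from embryonic cells by -0.77 ± 0.21 (adjusted p = 0.0134), and ADM culture differed from embryonic cells by -0.75 ± 0.21 (adjusted p = 0.0219). These 3 passed the p threshold but not the minimum difference of 1. Lymphocyte markers above background numbered 2 of 6 in tumor cells, 1 in ADM culture, 2 in embryonic and 2 in adult cells.

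Direct comparison of tumor cells with ADM culture gave 5 members called, where 8.35% of all genes were, with Cxcl5 and Ccl20 higher and Cxcl1, Cxcl12 and Ccl7 lower. Tumor against embryonic cells also gave 5, where 14.3% of all genes were called, with Cxcl2, Cxcl5, Cxcl16 and Ccl20 higher and Cxcl12 lower. ADM culture against embryonic cells gave 6, where 9.46% of all genes were called, and Cxcl1, Cxcl2, Cxcl5, Cxcl16, Ccl2 and Ccl7 were all higher. At an unadjusted limma p under 0.05, 1 member (Ccl5) was lower in ADM culture than in embryonic cells. Arrays of the pair of groups stayed apart for 7 members in tumor against adult cells (43.7% of all genes), 8 in ADM culture against adult cells (49.8%) and 6 in embryonic against adult cells (42.9%). The same held for 5 members in tumor cells against ADM culture (31.6%), 6 in tumor against embryonic cells (38.6%) and 8 in ADM culture against embryonic cells (37.6%). In all, 31 of the 60 member comparisons were called.

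Most chemokine genes of the mouse lie in clusters, and the order of genes was taken from the RefSeq annotation. On chromosome 5, Cxcl5 is followed by Ppbp, Pf4, Cxcl3, Cxcl15, Cxcl1 and Cxcl2, and later by Cxcl9, Cxcl10 and Cxcl11. Cxcl3, a further Cxcr2 ligand of this cluster, gave 6.36, 7.32 and 7.67 in tumor cells, 5.81, 4.34 and 4.33 in ADM culture, 2.53, 2.69 and 3.03 in embryonic and 3.27, 3.54 and 2.66 in adult cells. Its groups ran in the same order as those of Cxcl5 at the upper end, with tumor cells above ADM culture by 2.29 ± 0.40 (limma adjusted p = 0.0015). Cxcl3 was at least 11.3-fold higher in tumor than in adult cells (adjusted p = 3.89e-06).

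Ppbp, which encodes another Cxcr2 ligand, known from platelets, gave 4.44, 9.58 and 10.85 in tumor cells, 6.56, 6.51 and 5.28 in ADM culture, 4.35, 5.39 and 3.74 in embryonic and 3.43, 2.98 and 3.36 in adult cells. Tumor replicate 1, the lowest tumor array for Cxcl5 and Cxcl3 too, lay below every ADM array. Ppbp was at least 25.4-fold higher in tumor than in adult cells (limma adjusted p = 0.00341). That bound was 96.4-fold without tumor replicate 1, 16.2-fold without replicate 2 and 10.5-fold without replicate 3. Pf4, a platelet and megakaryocyte gene between Ppbp and Cxcl3, differed from adult cells by -0.90 ± 0.46 in tumor cells (not called), by 2.33 ± 0.46 in ADM culture (adjusted p = 0.00142) and by 3.96 ± 0.46 in embryonic cells (adjusted p = 3.25e-05). Without ADM replicate 1 its fold over adult cells in ADM culture was 3.19, against 5.04 with all arrays. Pf4 thus had its highest mean in embryonic cells, while Cxcl5, Ppbp and Cxcl3 on either side had theirs in tumor cells.

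**Figure D4:**
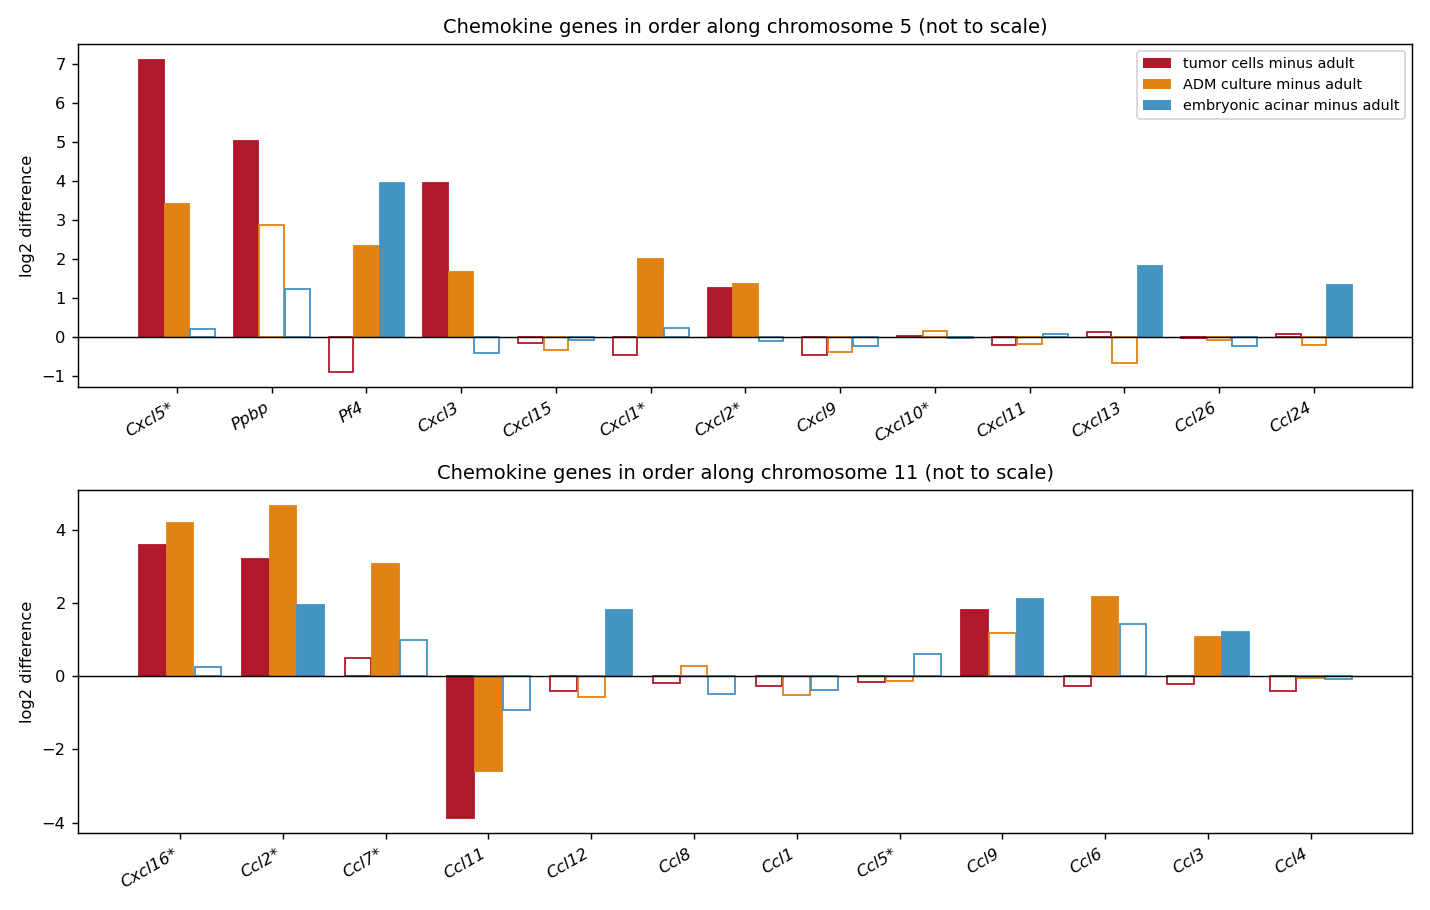
Log2 differences from adult acinar cells of the chemokine genes on chromosomes 5 and 11, in the order in which they lie and not to scale (asterisks mark the 10 genes described). Filled bars were called and open bars were not. Cxcl5, Ppbp and Cxcl3 share a called tumor increase on chromosome 5, and Ccl11 is called lower beside Ccl2 and Ccl7 on chromosome 11.

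On chromosome 11, Ccl2 and Ccl7 are followed by Ccl11, Ccl12 and Ccl8, and Ccl5 lies beyond Ccl1. Ccl11, an eosinophil ligand, had a range of 3.41 to 4.14 in tumor cells, 4.70 to 5.51 in ADM culture, 6.27 to 7.16 in embryonic and 7.43 to 7.78 in adult cells. The 4 ranges did not overlap and ran opposite to Ccl2 between adult cells and the 2 cultured groups. Ccl11 was 14.6-fold lower in tumor cells (limma adjusted p = 9.32e-08) and 6.08-fold lower in ADM culture (adjusted p = 5.68e-06) than in adult cells. Ccl12, a further Ccr2 ligand of the mouse, was at least 2.77-fold higher in embryonic than in adult cells (adjusted p = 0.00032) and under background in the other 3 groups. Of the 3 remaining members, Cxcl16 comes first among the chemokine genes of chromosome 11, Cxcl12 lies on chromosome 6 and Ccl20 on chromosome 1.

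Across the other ligands, 11 CXC, CX3C and XC genes gave 3 higher and 0 lower in tumor cells, 3 and 1 in ADM culture, and 2 and 1 in embryonic cells, each against adult cells. Cxcl14, a ligand made by epithelia, gave 8.77, 7.74 and 9.07 in ADM culture, against 5.93, 5.14 and 5.36 in adult cells, a difference of 3.05 ± 0.29 (limma adjusted p = 3.56e-06). Tumor cells stayed at 4.44 to 4.77 for that gene. Cx3cl1, a membrane-bound ligand shed by the same proteases as Cxcl16, was higher in tumor cells by 1.65 ± 0.20 (adjusted p = 1.67e-05), and ADM culture differed by 0.41 ± 0.20, not called. Of 15 measured CC genes outside the members, 1 was higher and 1 lower in tumor cells, 2 and 1 in ADM culture, and 4 and 0 in embryonic cells. Of 22 receptors, 1 was higher and 1 lower in tumor cells, 0 and 1 in ADM culture, and 3 and 1 in embryonic cells. For comparison with these 3 lists, 20.0% of all genes were called in tumor cells, 16.7% in ADM culture and 12.6% in embryonic cells. Leaving out 1 array gave 1 to 2 calls among the CC genes and among the receptors in tumor cells, and 1 to 2 among the receptors in ADM culture, with 2 found without ADM replicate 1. At an unadjusted limma p under 0.05, 2 receptors were higher in ADM culture and 7 lower.

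The genes that induce or limit chemokine transcription were counted from lists. Of 15 measured NF-kappaB subunits, feedback genes and targets, 8 were higher in tumor cells, 6 in ADM culture and 1 in embryonic cells, with none lower, and the medians were 1.45, 0.73 and 0.15. Leaving out 1 array gave 8 to 9, 4 to 7 and 0 to 2, with 4 in ADM culture found without ADM replicate 3. Among all genes, 20.0% were called in either direction in tumor cells, 16.7% in ADM culture and 12.6% in embryonic cells. Tnfaip3, the feedback inhibitor A20, had a range of 7.38 to 8.72 in tumor cells and 6.68 to 6.81 in ADM culture, against 4.13 to 4.53 in embryonic and 3.53 to 4.86 in adult cells. It was 15.2-fold higher in tumor cells (limma adjusted p = 7.96e-07) and 5.83-fold higher in ADM culture (adjusted p = 5.85e-05) than in adult cells. Bcl3, a nuclear partner of NF-kappaB, was higher by 3.10 ± 0.32 in tumor cells and by 2.24 ± 0.32 in ADM culture. Among the members, Cxcl2, Cxcl5, Cxcl16 and Ccl2 were called higher in the same 2 groups, Cxcl2 not under the 3 other scalings. Cxcl1 and Ccl7 were called higher in ADM culture only, and Ccl20 in tumor cells only. Cxcl12 was lower in tumor cells and higher in ADM culture, the latter not under the 3 other scalings. Cxcl10 and Ccl5 were called in neither. The part of NF-kappaB in the member levels was not tested. At an unadjusted limma p under 0.05, 1 gene of the list was lower in tumor cells, 1 in ADM culture and 2 in embryonic cells.

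Of 19 cytokines and receptors that act upstream of chemokines, 9 were higher in tumor cells, 7 in ADM culture and 2 in embryonic cells than in adult cells, and none was called lower. Leaving out 1 array gave 8 to 9 calls in this list in tumor cells, 5 to 7 in ADM culture and 2 to 4 in embryonic cells. The count of 5 was found without ADM replicate 1 and that of 4 without embryonic replicate 2. With all arrays, 20.0% of all genes were called in tumor cells, 16.7% in ADM culture and 12.6% in embryonic cells. Csf1, the macrophage growth factor, gave 8.74, 8.35 and 9.54 in ADM culture, against 4.15, 4.85 and 4.67 in adult cells, a 20.0-fold difference (limma adjusted p = 2.24e-06). Csf2, a growth factor of granulocytes and macrophages, gave 7.18, 6.26 and 7.09 in tumor cells, against 3.74, 3.60 and 3.81 in ADM culture and 3.19, 2.99 and 3.28 in adult cells. It was at least 9.32-fold higher in tumor than in adult cells (adjusted p = 5e-08). The interleukin 1 receptor gene Il1r1 was higher than adult in all 3 groups, by 3.19 ± 0.35, 3.64 ± 0.35 and 4.12 ± 0.35 in tumor cells, ADM culture and embryonic cells. Its ligand Il1b was higher in none of them.

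Of 15 measured interferon response genes, 3 were higher in tumor cells, 3 in ADM culture and 6 in embryonic cells, with none lower. The shares of all genes called in either direction were 20.0%, 16.7% and 12.6% in that order. The medians of the interferon response genes were -0.24, -0.01 and 0.80. The genes higher in tumor cells and ADM culture included a receptor of interferon gamma, with Ifngr1 up by 4.38 ± 0.24 in tumor cells (limma adjusted p = 1.33e-08) and by 3.49 ± 0.24 in ADM culture (adjusted p = 2.03e-07). Oasl2, an interferon-induced gene, was at least 2.93-fold higher in embryonic cells than in adult cells, where it was under background (adjusted p = 0.000706). Of 13 immediate early and dissociation genes, which tissue digestion can induce, 3 were higher and 3 lower in tumor cells and 4 were higher in ADM culture. Of all genes, 5.96% were called lower in tumor cells and 4.22% in ADM culture. In embryonic cells limma called 0 of the 13, where 12.6% of all genes were called, with 1 higher and 2 lower at an unadjusted p under 0.05. The tumor count of 6 calls in this list went to 10 without tumor replicate 1 and to 4 without tumor replicate 2. Jun was lower in tumor cells by 2.41 ± 0.26 on the log2 scale (adjusted p = 7.56e-06), while Ier3 was 16.5-fold higher there and 17.5-fold higher in ADM culture. The part of tissue digestion in the chemokine levels of freshly isolated cells was not tested.

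**Figure D5:**
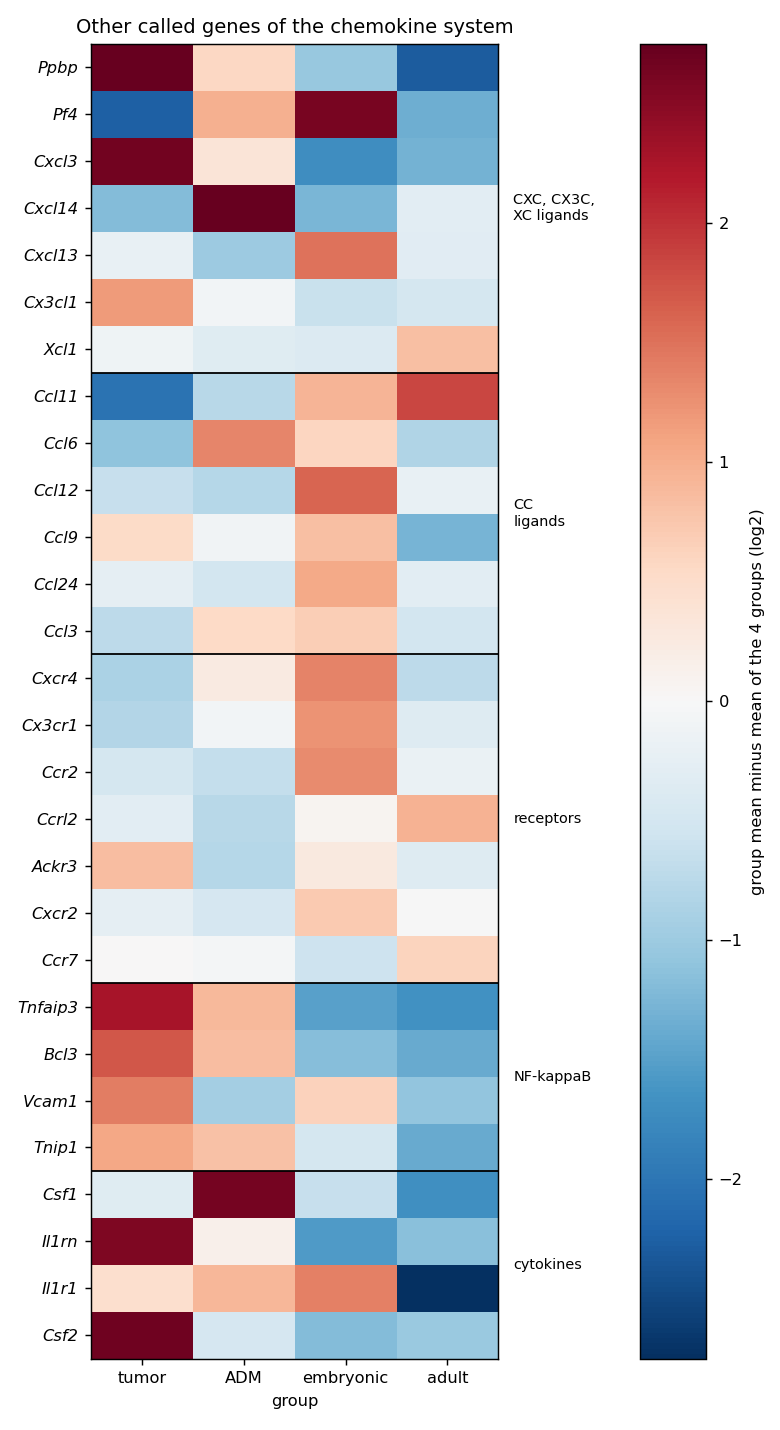
Group mean minus the mean of the 4 groups, on the log2 scale, for called genes of 5 other lists of the chemokine system (red above, blue below). Tumor cells stand out for Ppbp, Cxcl3, Tnfaip3, Il1rn and Csf2, ADM culture for Cxcl14 and Csf1, and embryonic cells for Pf4 and the receptors Cxcr4, Cx3cr1 and Ccr2.

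For the 7 members whose group means spanned at least 2 log2 units, the genes of nearest pattern were found by the root mean square difference over the 12 arrays after centring each gene. Ccl20 was nearest to Eva1c (0.25) and to Eno3, the muscle enolase gene (0.26). Cxcl1 was nearest to Angpt2, a ligand of the endothelial receptor Tek (0.27), and Cxcl16 to the cytokine gene Lif (0.34) and to Ier3 (0.42). Cxcl12 was nearest to the endothelial gene Emcn (0.48) and to Epcam (0.57), which averaged 9.09 in ADM culture, 8.62 in embryonic and 6.82 in adult cells. Ccl7 was nearest to Eprn (0.37) and the receptor gene Il18r1 (0.38), and Ccl2 to Peak1 (0.56) and the lipid droplet gene Plin2 (0.60). Cxcl5, whose group means spanned 7.12 log2 units, was nearest to the mast cell protease genes Mcpt2 and Mcpt8, both at 0.92. The distance is not scaled to a gene's span, so its size cannot be compared between members. These distances describe 12 arrays in 4 groups.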

How the data were processed

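Total RNA, extracted with a column kit and biotin-labelled per the labels' protocols, was measured on 12 Affymetrix arrays. The deposited values are the authors' processed log2 signals, 1 per probe set with 2 decimals. The software, normalization and log base are not given in the sources used here, and log2 was read from the range. Of 41345 probe sets, 23521 had 1 gene symbol in the platform annotation and gave 22180 genes, using the probe set with the highest mean. Probe sets with several symbols (1814) were tested apart, and 16010 with none were not used. Cross-hybridisation between close paralogs was not tested.

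All arrays were fitted together in limma 3.58.1 with R 4.3.3 (lmFit, contrasts.fit, eBayes), with 4 group means and no block. The fit had 8 residual degrees of freedom and a prior of 5.02. Tests were two-sided, adjusted over 22180 genes by Benjamini-Hochberg and tried on simulated data. Values after ± are standard errors of differences pooled over the 4 groups. A dimmer group at or under the background level makes a fold "at least", and 2 such groups give none. The number of arrays limits the precision.

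Alternatives were quantile, cyclic loess and housekeeping scaling, a filter on dim genes, means over probe sets, a replicate block, 2 groups only, an intensity trend, array weights, no minimum difference, and leaving out each array. The labels do not say whether replicate numbers pair the arrays. Over all genes, 1 of 18 correlations of deviations was over 0.1, and they ran from -0.05 to 0.13. Correlations over all genes cannot exclude a shared replicate effect on single genes such as Ccl2. The members and lists were chosen with earlier results of these data known. Named genes were all members, called ligands and receptors, and up to 4 called genes per list by the range of their group means, with a few others (Cxcl9, Cxcl11, Cxcr6, Ccr6, Il1b, Ptprc, Csf3) chosen after their values were seen. No coordinates other than those of RefSeq promoters (GRCm38.p6) are printed, since the array's build is not given.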

Additional observations from a re-analysis of the deposited data

Results flagged for a closer look

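Cxcl12 moved in opposite directions against adult acinar cells in 2 pairs of groups. It was called lower in tumor cells (-3.61) and higher in ADM culture (1.11), and the direct difference between them was -4.73 ± 0.30 (SE, n = 3 per group, limma adjusted p = 1.53e-07). It was likewise called higher in embryonic cells (1.44), with a direct difference of tumor against embryonic cells of -5.05 ± 0.30 (adjusted p = 2.95e-08). Tumor arrays lay below all others in both cases. The ADM call of 1.11 was lost without ADM replicate 2 (0.65) and under quantile (0.85), loess (0.75) and housekeeping (0.64) scaling.

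A chemokine signal also appeared in probe sets outside the gene tests. The Ccl21 ligands, which guide dendritic cells and T cells to lymph nodes through Ccr7, are near-identical genes read by 9 probe sets with several symbols, 5 of them distinct in their values. All 9 were called higher in embryonic than in adult acinar cells, with log2 differences of 2.55 to 3.53 (highest limma adjusted p = 2.01e-06, over probe sets with several symbols). Their group means were 7.79 to 8.34 in embryonic cells, against 4.51 to 5.23 in adult cells. In tumor cells they lay at 3.58 to 4.41 and in ADM culture at 3.79 to 4.26. The receptor Ccr7 averaged 3.22 in embryonic cells, under background, against 4.40 in adult cells. Which of the Ccl21 genes gave the signal cannot be read from these probe sets.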

How the results depend on the processing

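No called member difference changed its direction under any alternative. Of 60 member results, 31 of them called, quantile scaling lost 3, loess lost 3 and gained 1, and housekeeping centring lost 4 and gained 4. The lost calls were Cxcl2 and Cxcl12 in ADM culture and Cxcl2 in tumor cells, each against adult cells, and with housekeeping centring also Cxcl2 in tumor against embryonic cells, at 0.86. The gains with housekeeping centring were Cxcl1 in tumor against adult (-1.07) and embryonic cells (-1.19), and Ccl5 in tumor against embryonic cells (-1.27) and in ADM culture against embryonic cells (-1.13). Loess gained Ccl2 in tumor cells against ADM culture (-1.54, adjusted p = 0.0442). The filter on dim genes, which dropped Cxcl10, gained 2, array weights gained 1, and dropping the minimum difference gained 4. Fits of 2 groups only and the intensity trend changed no member call. Averaging probe sets left the members' values as they were, since each had 1 probe set.

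With the replicate number as a block, the members called were 6 in tumor cells, 7 in ADM culture and 2 in embryonic cells against adult cells. Ccl2 was gained in tumor cells against ADM culture (adjusted p = 0.00375) and in tumor against embryonic cells (adjusted p = 0.00485), giving 6 in each of these comparisons and 6 in ADM culture against embryonic cells. No other member call changed under the block.

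Leaving out 1 array gave 5 to 6 members called in tumor against adult cells, 6 to 7 in ADM culture against adult cells and 2 in embryonic against adult cells. It gave 5 to 6 in tumor cells against ADM culture, 5 to 6 in tumor against embryonic cells and 6 in ADM culture against embryonic cells.

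Over all genes, dropping the minimum difference moved the calls to 8254 against 4429 in tumor and to 7965 against 3701 in ADM cells, each against adult. It gave 6519 against 2797 in embryonic against adult cells, 3404 against 1852 in tumor cells against ADM culture, 5881 against 3179 in tumor against embryonic cells and 3897 against 2098 in ADM culture against embryonic cells. The share of calls that were higher depended on scaling. In tumor against adult cells it was 70.2% as deposited, 57.4% with quantile, 53% with loess and 24.3% with housekeeping scaling. In ADM culture against adult cells it was 74.7%, 59.5%, 59.4% and 31.8% in that order, and in embryonic against adult cells 79.3%, 64%, 69.1% and 72.3%. Housekeeping scaling also moved it to 16% against 45.5% in tumor against embryonic cells and to 22.2% against 48.1% in ADM culture against embryonic cells. Dim signals near 3.62 limit what can be said of Cxcl10, of Cxcl1 outside ADM culture, of Cxcl5 in acinar cells and of Ccl2 in adult cells.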

Other observations

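Within the tumor group, replicate 1 stood apart for several secreted ligands. Cxcl5 read 9.31 on it, against 11.20 and 11.42 on the other tumor arrays, and Ppbp read 4.44, against 9.58 and 10.85. Csf3, the granulocyte growth factor, read 3.19 on that array, under background, against 7.84 and 8.29. Ccl2 ran the other way at 8.01, against 6.04 and 6.49. The labels give no difference between the 3 tumor samples beyond their replicate number, and the cause was not tested.

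Some ligands and receptors of leukocytes outside the members were higher on the embryonic arrays, and others were lower. Cxcl13, a B cell ligand, was higher than in adult cells by 1.81 ± 0.35 (limma adjusted p = 0.00177), and the fractalkine receptor Cx3cr1 by 1.58 ± 0.22 (adjusted p = 0.000135). The ligand Xcl1 was called lower than in adult cells, at -1.22, and so was the receptor Ccr7, at -1.18. Without adult replicate 2 the Ccr7 value was -0.755 and was not called. Neutrophil markers had a summed linear signal of 1599 to 3039 on embryonic arrays, against 78.0 to 90.6 on adult arrays. Of 6 measured lymphocyte markers 0 were called against adult cells, where 12.6% of all genes were. The part of leukocytes in the embryonic chemokine signals was not tested.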
